A study of Homo sapiens with 12 samples.

Results

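DSCAM-AS1, MALAT1, NEAT1 and GAS5 are 4 long noncoding RNAs (lncRNAs, transcripts that are not translated into a known protein) that were followed in T-47D, a cell line from a human breast cancer of the luminal type that carries the oestrogen receptor. They were chosen by symbol, for their abundance and their response in earlier results of these data, and make up 4 of the 19460 genes in the RNA table. Their 301 alternative splicing events, of 145447 in the splicing tables, were taken with them. So were the 27 accessible regions, of 38121, that overlap a window from the lowest to the highest exon coordinate of each gene extended by 50 kb on either side.

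The study measured how these cells, labelled as wild type in the RNA libraries, respond to palbociclib, an inhibitor of the cell cycle kinases CDK4 and CDK6. Cells received 1 µM palbociclib or the solvent DMSO for 24 h, and both groups were grown in medium with serum. Poly(A) RNA was sequenced from 3 replicate libraries per treatment, and ATAC-seq, which reads accessible chromatin through insertion by the transposase Tn5, was run on another 3 per treatment, with 0.1% DMSO in its controls. The ATAC replicates are described as biological replicates in separate dishes, while no source used here says so of the RNA replicates, for which p-values measure the spread between these libraries.

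As background, lncRNAs act as RNA molecules, often by holding proteins at a place in the nucleus. NEAT1 is the scaffold of paraspeckles, nuclear bodies built on it by proteins such as NONO and SFPQ, and MALAT1 accumulates in nuclear speckles, where splicing factors are stored. GAS5 is spliced and carries C/D box small nucleolar RNAs (snoRNAs) in its introns, and its spliced RNA is also found in the cytoplasm, so the word nuclear fits it less well. DSCAM-AS1 is an oestrogen receptor dependent lncRNA of luminal breast cancer, reported to bind HNRNPL and YBX1. None of the assays measured where in the cell an RNA lies.

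The libraries fell into their labelled groups. Between RNA libraries of 1 group the Pearson r of log2 FPKM over genes was at least 0.9951, against at most 0.9711 between groups, and the ATAC counts in peaks summed to between 12830062 and 18250496 per library. The drug response was visible in MKI67, a marker of cycling cells, at 30.8, 32.0 and 29.5 FPKM in DMSO and at 1.53, 1.75 and 1.57 with palbociclib. All 8 luminal epithelial markers were detected, with a summed level of 5510 to 6038 FPKM in DMSO and 7386 to 8176 with palbociclib. Of 4 basal markers 1 was listed, at no more than 0.113 FPKM, and of 4 endothelial markers 0 were listed in the table used here. COL1A1 made up most of the sum of 23.6 to 26.6 FPKM of 3 listed fibroblast markers, of 5, and the 3 listed immune markers, of 5, summed to at most 1.69.

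MALAT1 and GAS5 have promoter windows in RefSeq (GRCh38.p14), each running from 250 bases before to 50 bases after an annotated start. MALAT1 has 2 such windows, at chr11:65497488-65497787 and chr11:65498795-65499094, and the second starts the gene at the first base of its lowest exon in the splicing tables. GAS5 has 1 window, at chr1:173868996-173869295 on the minus strand. The GAS5 window and the downstream MALAT1 window are shown because the RNA of both genes was higher with palbociclib. Which of its 2 starts the MALAT1 RNA came from was not tested, and the upstream window is not shown. Capitals mark the letters of any motif found in a search for 9 short motifs on both strands.

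GAS5 promoter: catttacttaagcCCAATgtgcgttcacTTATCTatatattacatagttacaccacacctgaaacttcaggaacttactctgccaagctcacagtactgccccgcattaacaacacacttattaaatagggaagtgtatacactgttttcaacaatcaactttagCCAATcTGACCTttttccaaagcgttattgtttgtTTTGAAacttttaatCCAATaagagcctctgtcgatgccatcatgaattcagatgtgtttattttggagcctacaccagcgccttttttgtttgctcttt
MALAT1 downstream promoter: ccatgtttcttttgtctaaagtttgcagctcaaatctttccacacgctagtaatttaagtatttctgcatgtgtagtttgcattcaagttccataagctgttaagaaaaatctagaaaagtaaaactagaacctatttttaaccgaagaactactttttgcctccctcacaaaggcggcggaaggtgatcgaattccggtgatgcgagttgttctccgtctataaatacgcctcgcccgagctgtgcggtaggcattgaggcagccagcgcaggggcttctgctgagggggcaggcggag

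The GAS5 window held 3 CCAAT boxes (CCAAT), which 34.6% of all 35116 promoter windows hold at least once. It also held 1 single arm of the oestrogen response element (AGGTCA, in 13.8% of windows), 1 CHR motif (TTTGAA, in 15.2%) and 1 GATA motif (AGATAA, in 10.3%). It held none of the full oestrogen response element (in 0.0570%), the forkhead motif (TGTTTAC, in 3.42%), the AP-1 motif (TGANTCA, in 7.71%) or the E2F motifs (TTTCCCGC, in 1.63%, and TTTGGCGC, in 0.652%). Neither MALAT1 window held a letter match to any of the 9 motifs. The windows also differ in base composition, with 37.7% G and C in GAS5 and 73.7% and 46.0% in the upstream and downstream windows of MALAT1.

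All 4 lncRNAs were more abundant after palbociclib, by 1.32-fold to 1.77-fold, and for each of them the palbociclib libraries lay above all DMSO libraries. The levels are FPKM, a count of fragments scaled by transcript length and library depth. The libraries were made from poly(A) RNA, and how fully each RNA was captured was not measured. Ranks and ratios between genes therefore compare FPKM only. The levels were tested with limma on log2(FPKM + 1), with Benjamini-Hochberg adjustment over the 15869 genes with a mean of at least 0.5 FPKM. Changes are palbociclib minus DMSO. A change passed the test at an adjusted p under 0.05, as 43.7% of all genes tested did, 20.9% in the higher direction, and 26.5% had all palbociclib libraries above all DMSO libraries. The genes were chosen from this contrast, so their calls describe them and are no independent evidence. In bulk RNA, a change in the amount per cell and a change in how many cells make the RNA cannot be told apart.

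**Figure D1:**
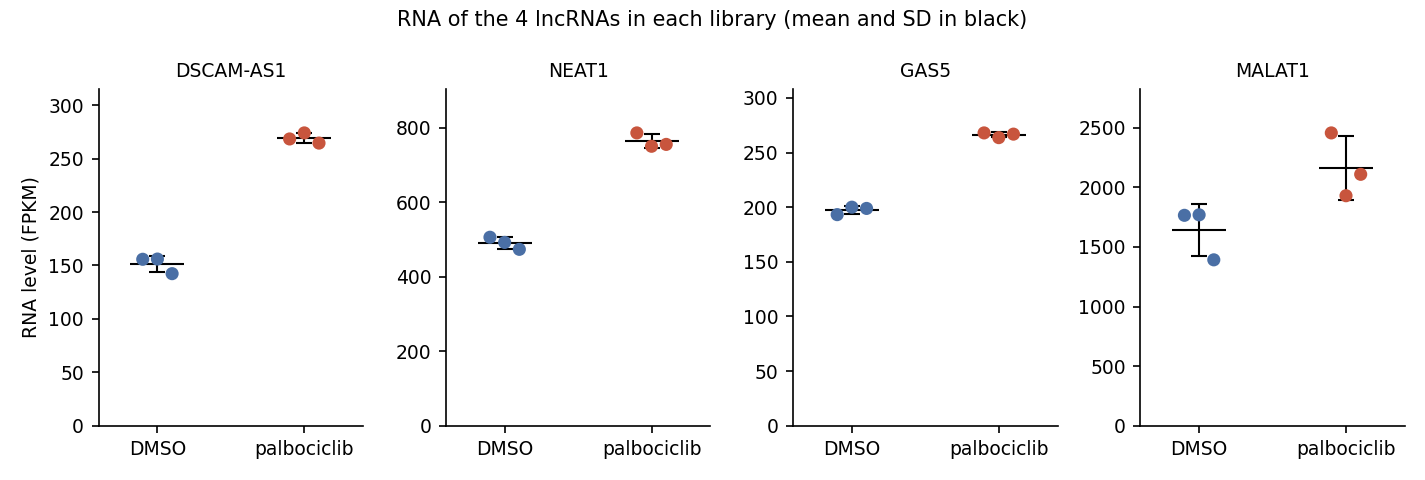
RNA level in FPKM (vertical axis, from 0) of DSCAM-AS1, NEAT1, GAS5 and MALAT1 in each of the 6 RNA libraries, DMSO in blue and palbociclib in red, with the group mean and SD in black. The groups are apart in all 4 panels, and MALAT1 has the widest spread within a group.

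DSCAM-AS1 (ENSG00000235123), which lies within the span of DSCAM on chromosome 21, had the largest relative rise of the 4. Its level was 155.8, 156.0 and 142 FPKM in the DMSO libraries and 268, 274 and 265 FPKM in the palbociclib libraries. The log2 change was 0.83 (SE 0.041, limma adjusted p = 1.1e-06), or 1.77-fold, and 78 of the 3312 genes called higher had a larger one. Its rank among all genes, with 1 as the highest FPKM, moved from 545 by the mean of the DMSO libraries to 275 by the mean of the palbociclib libraries.

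NEAT1 (ENSG00000245532, chromosome 11) had levels of 506, 492 and 474 FPKM in DMSO and of 786, 751 and 756 FPKM with palbociclib. Every palbociclib library was at least 244 FPKM above every DMSO library. The log2 change was 0.64 (SE 0.035, limma adjusted p = 2.2e-06), or 1.56-fold, and the rank moved from 155 to 95. RefSeq gives NEAT1 a span of 22743 bases, while its exons in the splicing tables cover only 2031 bases at the 5' end. The gene table has 1 row for NEAT1, so the short form and the long form that builds paraspeckles were not told apart. The libraries were made from poly(A) RNA, and which form rose was not tested.

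GAS5 (ENSG00000234741, chromosome 1) had the smallest spread, with a coefficient of variation of 1.85% in DMSO and 0.843% with palbociclib. It lay at 193, 200.0 and 199 FPKM in DMSO and at 268, 264 and 267 FPKM with palbociclib. The log2 change was 0.43 (SE 0.028, limma adjusted p = 6e-06), or 1.35-fold. GAS5 lay above DSCAM-AS1 in every DMSO library but not in palbociclib replicates 1 and 2. The ratio of DSCAM-AS1 to GAS5 lay at 0.716 to 0.807 in DMSO but at 0.992 to 1.04 with palbociclib, where the FPKM of the 2 genes came within their spread of each other.

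MALAT1 (ENSG00000251562, chromosome 11) had the highest FPKM of the 4, ranking between 26 and 47 in the 6 libraries. Its level was 1765, 1769.6 and 1392 FPKM in DMSO and 2457, 1930.1 and 2110 FPKM with palbociclib. DMSO replicate 3 lay well below the other DMSO libraries, and palbociclib replicate 1 well above the other palbociclib libraries. The coefficient of variation was 13.2% in DMSO and 12.4% with palbociclib, and the log2 change of 0.40 had an SE of 0.111 (limma adjusted p = 0.0187). The call was lost without palbociclib replicate 1, with a change of 0.31 (limma adjusted p = 0.0594), and under quantile normalization, with 0.20 (limma adjusted p = 0.176). MALAT1 RNA ends in a processed triple helix without a canonical poly(A) tail, and these libraries were made from poly(A) RNA.

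The 4 lncRNAs together held 0.301% to 0.368% of the summed FPKM in DMSO, against 0.426% to 0.489% with palbociclib. The order of levels was MALAT1, NEAT1, GAS5 and DSCAM-AS1 in every DMSO library. MALAT1 stood at 2.94 to 3.59 times NEAT1 in DMSO and at 2.57 to 3.12 times with palbociclib. In the authors' deposited table, made with DESeq2, the log2 changes were 0.83 for DSCAM-AS1, 0.64 for NEAT1, 0.43 for GAS5 and 0.40 for MALAT1. The mean normalized counts behind them in the authors' deposited table were 19390.3, 130319, 11033 and 364553, so low counts did not limit any of them.

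The genes most like each lncRNA over the 6 libraries were sought among 7484 named genes with a mean of at least 10 FPKM, as those with the smallest mean absolute difference in log2(FPKM + 1) after the DMSO mean was subtracted. For NEAT1 they were SERPINA6, which encodes corticosteroid-binding globulin (difference 0.019), TM7SF2, a sterol reductase (0.024), and RHOB, a small GTPase (0.026). For GAS5 they were TMEM184B (0.015), CCDC120 (0.018) and IL17RC (0.019). HPN, a membrane serine protease (0.035), PNRC1 (0.036) and COL7A1 (0.036) came closest to DSCAM-AS1. MALAT1 had no gene as close, and its nearest were RIT1 (0.068), FCGRT (0.074) and EPHX2 (0.077). This measure takes in both the size of the palbociclib change and the spread between libraries, and that spread was widest in MALAT1.

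Genes around the lncRNAs did not share a direction. DSCAM, in whose span DSCAM-AS1 lies, rose slightly from 2.94, 2.91 and 2.67 FPKM to 3.40, 3.69 and 3.34 FPKM. Its log2 change was 0.22 (SE 0.067, limma adjusted p = 0.0284), and the call was lost on leaving out any 1 of DMSO replicates 2 and 3 and palbociclib replicates 1 and 2, with limma adjusted p of 0.0562 to 0.0994. DSCAM and DSCAM-AS1 share a region, and the strand used in counting is not given in the sources used here, so reads of the 2 genes may not be fully separated.

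Near MALAT1, TALAM1, which is transcribed antisense to it, rose from 1.52, 2.00 and 1.56 FPKM to 3.02, 2.72 and 3.08 FPKM (log2 change 0.55, SE 0.089, limma adjusted p = 0.0013). TALAM1 overlaps MALAT1 almost fully and was far less abundant, and without the strand of the counts their reads cannot be told apart. LTBP3, which encodes a binding protein of latent TGF-beta, rose by 0.28 (SE 0.039, limma adjusted p = 5.43e-04).

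On the other side, near NEAT1, SLC25A45, a mitochondrial carrier gene, rose from 4.93, 5.33 and 5.63 FPKM to 7.13, 7.92 and 7.72 FPKM (log2 change 0.45, SE 0.065, limma adjusted p = 7.43e-04). FRMD8 fell by 0.19 (SE 0.053, limma adjusted p = 0.0191), a call that was lost under quantile normalization and median centring (limma adjusted p = 0.213 and 0.176) and without DMSO replicate 2 or palbociclib replicate 1 (0.0688 and 0.0662).

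Around GAS5, CENPL and GAS5-AS1 were called lower while GAS5 rose. CENPL, a centromere protein gene, had 13.2, 11.9 and 13.7 FPKM in DMSO and 3.19, 3.08 and 3.14 FPKM with palbociclib. Its log2 change was -1.75 (SE 0.063, limma adjusted p = 1.26e-07). GAS5-AS1, which overlaps the GAS5 3' end, had 1.04, 1.05 and 1.25 FPKM against 0.390, 0.372 and 0.929 FPKM. Its log2 change of -0.45 (limma adjusted p = 0.0284) lost the call on leaving out any library but palbociclib replicate 3 (limma adjusted p of 0.0523 to 0.0948) and under median centring (0.0574). With a pseudocount of 0.1 in place of 1 its log2 change was -0.96, so the size of the change at this low level depends on the pseudocount. ZBTB37, which starts beside GAS5, had overlapping groups.

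Other gene groups linked to the 4 lncRNAs were read from the same fit, in which 20.9% of genes were called higher, 22.9% were called lower and the median log2 change was 0.00. The lists describe known partners and relatives and were chosen with results of these data known.

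Of 20 paraspeckle protein genes tested, 17 fell, none rose and the median log2 change was -0.28, while NEAT1 RNA, its forms not told apart, rose. NUDT21, a subunit of the cleavage factor that acts at the proximal poly(A) site of NEAT1, had 64.7, 63.0 and 64.9 FPKM in DMSO and 42.9, 41.9 and 41.8 FPKM with palbociclib. It fell by 0.59 (SE 0.031, limma adjusted p = 1.59e-06), and DAZAP1 fell by 0.55 (SE 0.034, limma adjusted p = 4.57e-06).

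RNA of the core paraspeckle genes also fell. SFPQ fell by 0.35 (SE 0.031, limma adjusted p = 3.53e-05), NONO by 0.27 (SE 0.050, limma adjusted p = 0.00256) and PSPC1 by 0.22 (SE 0.047, limma adjusted p = 0.00541). HNRNPK, SMARCA4 and EWSR1 did not pass the test, with log2 changes of -0.07, -0.03 and -0.04. SMARCA4 is a chromatin remodeller and many of the others are general splicing or 3' end processing factors.

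Nuclear speckle protein genes, the partners of MALAT1, were split, with 5 higher, 9 lower and 5 not past the test of 19 tested (median log2 change -0.04, but 0.01 under quantile normalization and 0.06 under median centring). The count higher was 3 without DMSO replicate 2, palbociclib replicate 2 or palbociclib replicate 3, each left out alone. SRSF7, a serine and arginine rich splicing factor, fell from 103, 100.2 and 103 FPKM to 66.3, 65.1 and 64.0 FPKM (log2 change -0.64, SE 0.030, limma adjusted p = 7.84e-07). SRSF2 fell by 0.53 (SE 0.039) and TRA2B fell by 0.52 (SE 0.029). LUC7L3 rose by 0.33 (SE 0.035), SRRM2, a structural protein of speckles, by 0.24 (SE 0.040), and ACIN1 by 0.20 (SE 0.036). SON, the other structural speckle protein, had overlapping groups and a log2 change of 0.04.

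**Figure D2:**
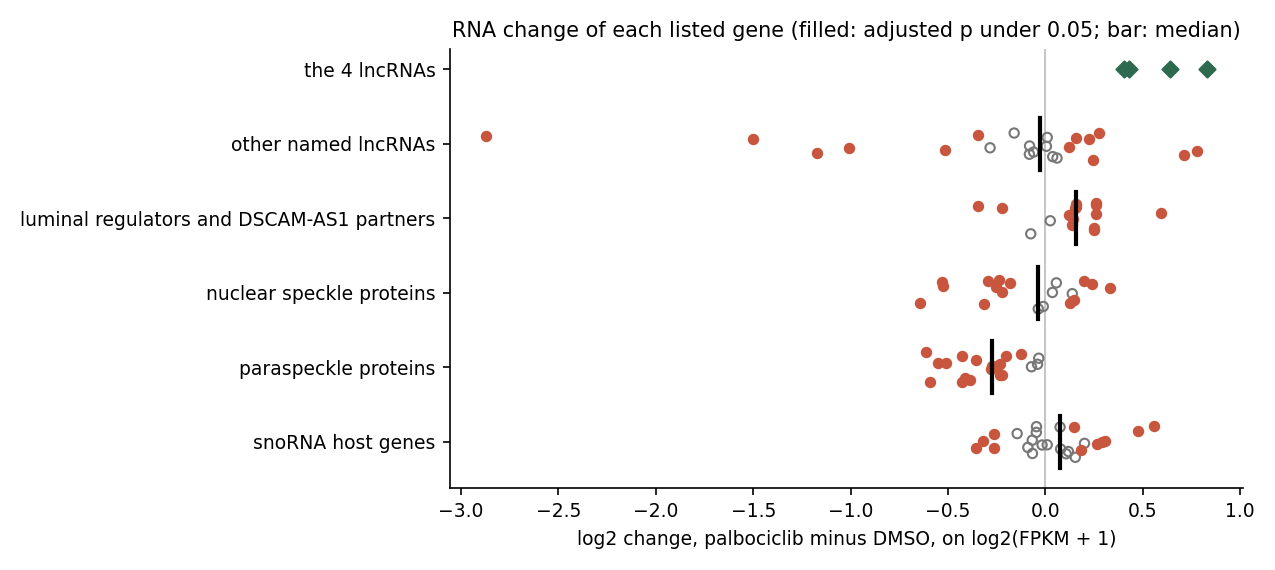
Log2 change in RNA, palbociclib minus DMSO on log2(FPKM + 1) (horizontal axis), of each gene in 5 lists and of the 4 lncRNAs (green diamonds). Filled red points passed an adjusted p of 0.05, open points did not, and black bars are list medians, of which that of the paraspeckle proteins is lowest at -0.28. Vertical scatter within a list carries no value.

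Among 25 snoRNA host genes other than GAS5, 7 rose, 4 fell and 14 did not pass the test (median log2 change 0.07). EPB41L4A-AS1 rose from 22.5, 22.1 and 20.1 FPKM to 29.4, 32.5 and 34.5 FPKM (log2 change 0.55, SE 0.065, limma adjusted p = 2.27e-04). SNHG8 rose by 0.47 (SE 0.055) and SNHG14 by 0.31 (SE 0.053), while SNHG17, SNHG1 and SNHG6 fell by 0.36, 0.32 and 0.26. The change of GAS5, 0.43, lay within the range of the hosts called higher. With quantile normalization or median centring, 11 hosts were called higher.

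Of 16 luminal regulators and reported DSCAM-AS1 partners, 12 rose and 2 fell (median log2 change 0.15). PGR, the progesterone receptor gene and an oestrogen receptor target, had 80.4, 82.1 and 83.6 FPKM in DMSO and 120.4, 123 and 130.3 FPKM with palbociclib. Its log2 change of 0.59 (SE 0.037, limma adjusted p = 4.99e-06) was below that of DSCAM-AS1. TFAP2C and SPDEF, transcription factors of luminal cells, each rose by 0.26 (SE 0.049 and 0.047). ESR1, which encodes the oestrogen receptor, rose by 0.16 (SE 0.039, limma adjusted p = 0.0118), and FOXA1, its pioneer factor, by 0.14 (SE 0.031, limma adjusted p = 0.00796). Both are also among the 8 luminal markers, whose summed level was higher with palbociclib, and the part of that rise in the list was not tested.

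The 2 members of that list that fell were the RNA-binding partners of DSCAM-AS1. YBX1 had 316, 317 and 323 FPKM in DMSO and 249, 255 and 248 FPKM with palbociclib, a log2 change of -0.34 (SE 0.027, limma adjusted p = 2.16e-05). HNRNPL fell by 0.22 (SE 0.054, limma adjusted p = 0.0101), and under median centring by 0.13 (limma adjusted p = 0.0852).

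Other named lncRNAs did not move as a group. Of 22 tested, 7 rose, 6 fell and 9 did not pass the test (median log2 change -0.03, but 0.03 under quantile normalization and 0.07 under median centring). TMPO-AS1, antisense to the lamina-associated TMPO, had 11.5, 12.3 and 12.2 FPKM in DMSO and 1.01, 0.768 and 0.577 FPKM with palbociclib (log2 change -2.87, SE 0.092, limma adjusted p = 5.68e-08). DLEU2, a host of microRNAs, fell from a mean of 15.6 FPKM to 4.86 FPKM and H19, an imprinted lncRNA, fell by 1.17 (SE 0.092). PCAT6 rose by 0.78 (SE 0.086), MIR22HG by 0.71 (SE 0.136) and HOTAIR by 0.27 (SE 0.080). The number called higher was 4 without DMSO replicate 1, DMSO replicate 2 or palbociclib replicate 2, each left out alone.

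Accessibility around the 4 genes changed at 6 of 27 peaks, and at none of those around DSCAM-AS1 and GAS5. Peak counts were scaled by TMM to the size of each library (CPM) and tested with the edgeR quasi-likelihood test over all 38121 peaks, of which 11.9% passed an adjusted p of 0.05, 5.41% higher and 6.46% lower. The groups were apart in 28.3% of all peaks and in 12 of the 27 in the windows. Of the 27 peaks in the windows, 3 were called higher and 3 lower, all of them around NEAT1 and MALAT1, whose windows overlap and share 3 peaks. Without palbociclib replicate 1, 1 peak was called higher and 2 lower.

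**Figure D3:**
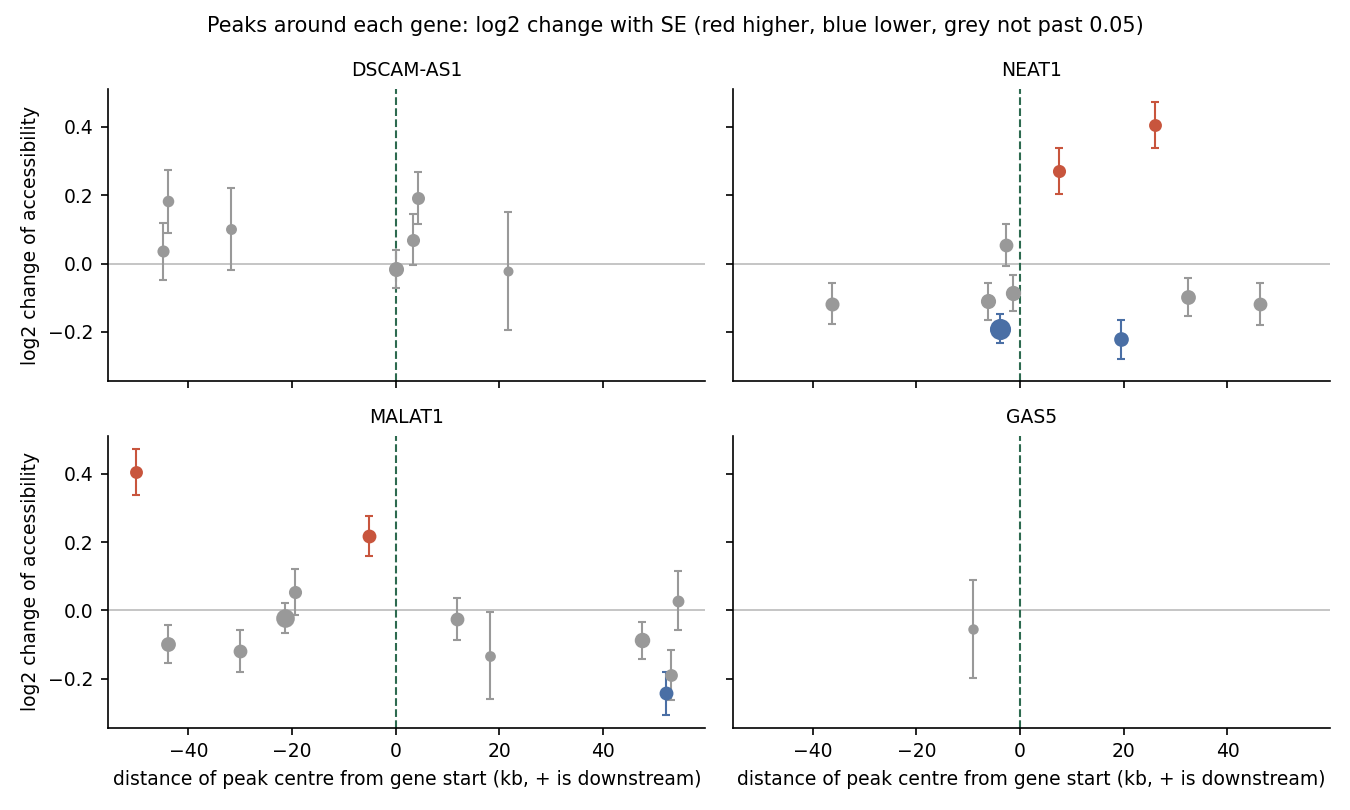
Log2 change in ATAC accessibility (vertical axis, with SE bars) against the distance of the peak centre from the gene start (horizontal axis, kb) for the peaks of each window. Points grow with the DMSO level, red was called higher, blue lower and grey neither. The NEAT1 and MALAT1 panels share 3 peaks.

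A peak lay on the start of DSCAM-AS1 itself (chr21:40382590-40383445), and it did not change detectably. It had 88.9, 90.5 and 99.9 CPM in DMSO and 97.4, 92.6 and 85.8 CPM with palbociclib, so the groups overlapped. The log2 change was -0.02 (SE 0.056, edgeR adjusted p = 0.887), with a 95% interval from the spread of log2 CPM of -0.23 to 0.19. A change of -0.19, the size called at a peak before the NEAT1 start, lies within this interval. Accessibility and RNA are different measures, and the sizes of their changes were not compared. The sign of the log2 change of this peak turned positive under library totals, at 0.01.

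None of the 7 peaks of the DSCAM-AS1 window passed the test, and 1 had an unadjusted p under 0.05 (edgeR). DESeq2 called no more than edgeR over the 4 windows, with 3 higher and 3 lower. The summed accessibility of the window was 249, 249.8 and 267 CPM in DMSO and 279, 279 and 244 CPM with palbociclib. A peak further away, at chr21:40310269-40310627 in DSCAM, rose the most of the 19 peaks in that gene and was among the reasons for choosing DSCAM-AS1. It lies 72.6 kb from the DSCAM-AS1 start, outside the window. Its counts were 30, 45 and 31 in DMSO and 85, 73 and 70 with palbociclib, or 2.36, 2.47 and 2.18 CPM against 5.21, 4.96 and 4.99 CPM.

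Around NEAT1, the region with the most reads fell while 2 weaker ones gained. The peak with its centre 3.87 kb before the start (chr11:65418424-65419421) had 329.8, 321 and 361 CPM in DMSO and 301, 299 and 286 CPM with palbociclib. All palbociclib libraries lay below all DMSO libraries, with a log2 change of -0.19 (SE 0.043, edgeR adjusted p = 0.00115). The peak nearest to the start, 1.35 kb before it (chr11:65421214-65421672), had 101, 97.4 and 101 CPM against 96.2, 95.2 and 91.1 CPM, and its log2 change of -0.09 did not pass the test (edgeR adjusted p = 0.311).

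Within the RefSeq span of NEAT1, one peak rose and another fell. The peak 7.49 kb after the start (chr11:65429859-65430718) had 46.9, 43.8 and 49.9 CPM in DMSO and 59.3, 56.9 and 52.6 CPM with palbociclib (log2 change 0.27, SE 0.067, edgeR adjusted p = 0.00401). That call was lost without DMSO replicate 2 (edgeR adjusted p = 0.0602) and without palbociclib replicate 1 (0.0575). The peak 19.6 kb after the start (chr11:65441907-65442779) had 82.3, 82.3 and 84.8 CPM against 73.6, 73.0 and 67.2 CPM (log2 change -0.22, SE 0.057, edgeR adjusted p = 0.00522).

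The largest change of the 27 peaks was a gain just beyond the 3' end of NEAT1, at chr11:65448347-65449387, which both windows hold. It had 39.6, 45.4 and 42.4 CPM in DMSO and 55.6, 55.3 and 58.3 CPM with palbociclib. The log2 change was 0.40 (SE 0.068, edgeR adjusted p = 1.2e-05). The centre of this peak lies 26.1 kb after the NEAT1 start and 50.2 kb before that of MALAT1.

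**Figure D4:**
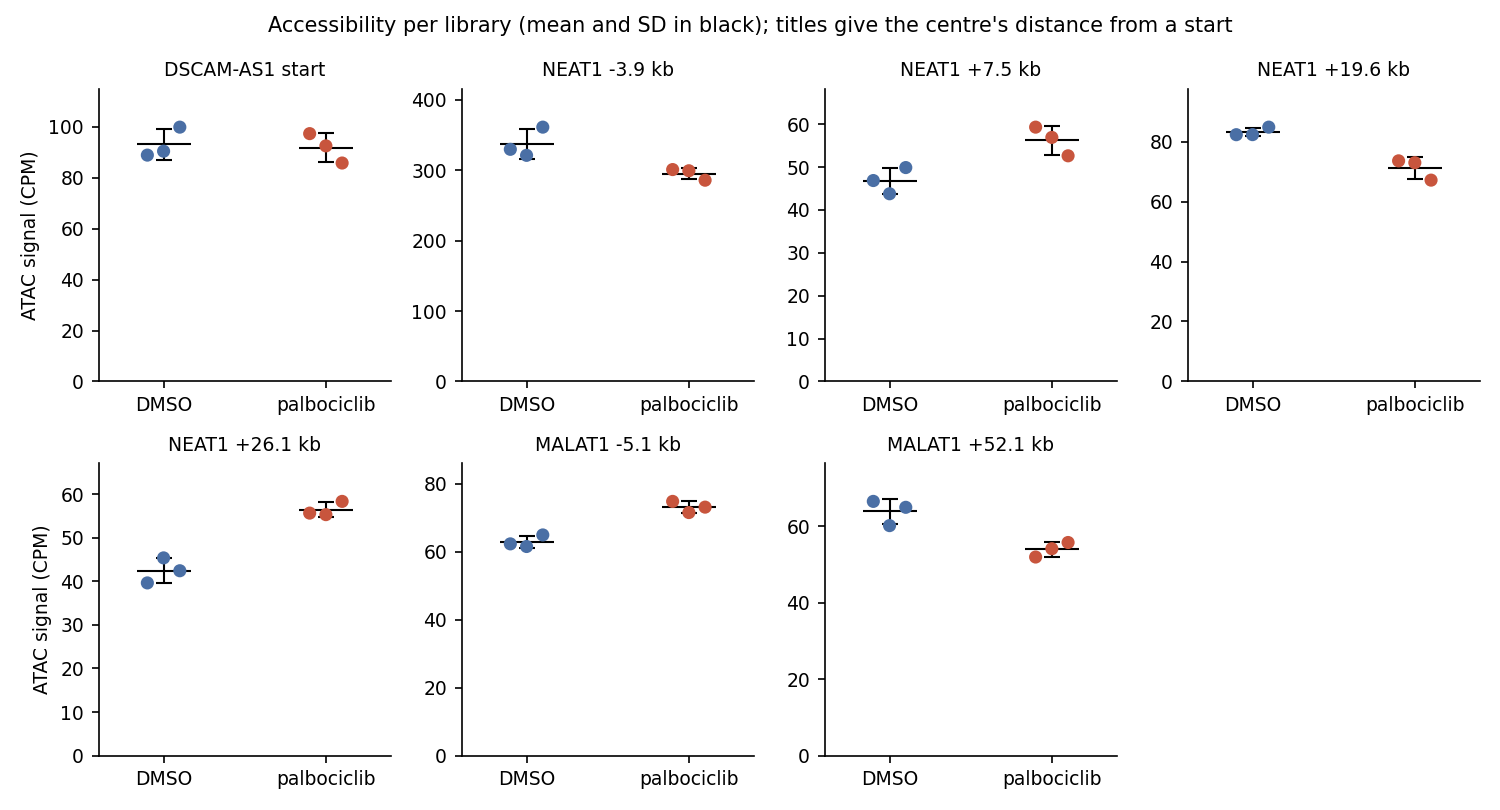
ATAC signal in CPM (vertical axis, from 0) per library for the peak on the DSCAM-AS1 start and for the 6 peaks called higher or lower around NEAT1 and MALAT1, with group mean and SD in black. Panel titles give the distance of the peak centre from the start of the gene named. The groups overlap in the DSCAM-AS1 panel and are apart in the other 6.

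Nearest to MALAT1, a peak with its centre 5.10 kb before the start used here (chr11:65493720-65494175) had 62.3, 61.5 and 64.9 CPM in DMSO and 74.8, 71.5 and 73.1 CPM with palbociclib. It rose by 0.22 (SE 0.059, edgeR adjusted p = 0.00804). The strongest peak of the window, 21.4 kb before the start (chr11:65477112-65478107) in ENEMAL, had 224, 212 and 222 CPM against 223, 210.4 and 215 CPM, with overlapping groups. The peak in LTBP3 at chr11:65550976-65551389 fell from 66.5, 60.2 and 65.0 CPM to 52.0, 54.1 and 55.8 CPM (log2 change -0.24, SE 0.063, edgeR adjusted p = 0.00594). Without palbociclib replicate 1, the calls of the first and the third were lost, with edgeR adjusted p of 0.0606 and 0.0578.

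In the list of peaks, no peak overlapped the start of MALAT1, NEAT1 or GAS5. The nearest lay 4870 bases, 1123 bases and 8758 bases from the outermost exon end in the splicing tables. From the RefSeq starts the gaps were 3563, 1126 and 7702 bases. A start without a listed peak was common. Of the 703 genes with a RefSeq start and a mean of at least 100 FPKM, 39.1% had a listed peak within 250 bases of a start. The GAS5 window held 1 peak (chr1:173876747-173877315, in ZBTB37), at 9.99, 9.22 and 8.10 CPM in DMSO and 9.19, 9.25 and 7.76 CPM with palbociclib. Its log2 change of -0.06 (SE 0.143) did not pass the test (edgeR adjusted p = 0.855), and the interval of -0.39 to 0.28 leaves room for changes of the size seen in other peaks.

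Summed over its peaks, the NEAT1 window had 978, 951 and 1020.1 CPM in DMSO and 948, 927 and 902 CPM with palbociclib, a log2 ratio of means of -0.09 where its RNA rose by 0.64. The MALAT1 window summed to 830.3 ± 20.0 CPM (SD, n = 3) in DMSO and 819 ± 11.3 CPM (SD, n = 3) with palbociclib. Its log2 ratio was -0.02, and 0.07 with windows of 20 kb. No test was made on these sums.

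The 4 lncRNAs differed widely in how they were spliced. The inclusion level of a splicing event is the length-corrected share of reads that support the included form, from 0 to 1. Over the 7 retained-intron events of MALAT1 the level lay between 0.993 and 1 in every library. They had 14097 to 218913 reads of the retained form against 0 to 40 across the spliced junctions. In NEAT1 the single retained-intron event had a level of 0.996 to 1.00, and in DSCAM-AS1 4 such events had levels of 0.941 to 1. These are counts of events and not of all introns, and NEAT1 also had 5 skipped-exon events. Of these DSCAM-AS1 introns, those at chr21:40383521-40383651, chr21:40383548-40383651 and chr21:40383585-40384065 lie inside an annotated exon (chr21:40383506-40384138), so their levels need not mean retention. The same holds for the MALAT1 introns at chr11:65503121-65503728, chr11:65503121-65504132 and chr11:65503800-65504132, which lie inside an exon at chr11:65503117-65504206. Other DSCAM-AS1 junctions were spliced. Around the exon at chr21:40384066-40384138, 1271 to 4040 reads per library joined the flanking exons without it. GAS5 intron events had levels from 0.0470 to 1, with up to 3513 reads across a spliced junction. Some events near 1 span other GAS5 exons, so their level need not mean retention. The event at chr1:173864305-173865470, at 0.967 to 0.991, spans the exon at chr1:173864675-173864704. In the 9 GAS5 intron events that could be tested, levels lay at 0.0470 to 0.404.

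Splicing changes were tested with the edgeR quasi-likelihood test on the reads of both forms, over the 37445 events that averaged 20 reads or more and whose rarer form made up 5% of reads or more. Of these, 0.355% were called. Of the 301 events of the 4 genes, 60 could be tested, 54 of them in GAS5, and 1 was called.

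The call was a MALAT1 exon of 79 bases (chr11:65502637-65502715), which had inclusion levels of 0.794, 0.853 and 0.833 in DMSO and 0.959, 0.953 and 0.953 with palbociclib. The reads joining the exons around it without it numbered 12, 11 and 12 in DMSO and 5, 5 and 7 with palbociclib. The reads of the included form, which with this counting also lie inside the exon, numbered 83, 115 and 108 against 211, 181 and 258. The same exon is part of other events with other exons around it, which the filters kept from the test. In 1 of them its levels were 0.977, 1 and 1 in DMSO and 0.991, 1 and 0.993 with palbociclib. In another they were 0.898, 0.953 and 0.936 against 0.983, 1 and 0.986. The size of the rise thus depends on the event definition and its few skipping reads, and need not mean more inclusion. The mean level rose by 0.13 (edgeR adjusted p = 0.0475), and the FDR in the authors' deposited table is 3.59e-04. DESeq2 gave an adjusted p of 0.0954, and leaving out 1 palbociclib library gave an edgeR adjusted p of 0.134 to 0.168. The event fell under the filter on the minor form when a DMSO library was left out.

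A second MALAT1 exon (chr11:65505591-65505662) had levels of 0.205, 0.233 and 0.151 in DMSO and 0.414, 0.367 and 0.284 with palbociclib. Its groups were apart, as in 13.8% of all events tested, but with a mean of 22.7 reads it did not pass the test (edgeR adjusted p = 0.818).

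In DSCAM-AS1, 2 events could be tested, and the one with more reads was an internal exon of 487 bases (chr21:40383652-40384138). Its inclusion level was 0.335, 0.318 and 0.342 in DMSO and 0.318, 0.328 and 0.354 with palbociclib, from a mean of 5355 reads per library, so the groups overlapped and the use of this exon was not detectably different. A shorter exon that ends at the same base (chr21:40384066-40384138, 73 bases) is part of 2 events, which share the exon but not the exons around it. In the deeper event its included form had 35, 63 and 35 reads in DMSO and 69, 78 and 92 with palbociclib, at levels of 0.0141, 0.0198 and 0.0156 against 0.0115, 0.0116 and 0.0129, and the filter on the minor form kept it from the test. In the other event the included form had 0, 3 and 0 reads in DMSO and 1, 66 and 61 reads in palbociclib replicates 1 to 3. This second event did not pass the test (edgeR adjusted p = 0.555), while its FDR in the authors' deposited table is 0.0348.

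In NEAT1, 1 pair of mutually exclusive exons (chr11:65423295-65423383 and chr11:65423627-65423657) could be tested. The level of the first exon was 0.103, 0.184 and 0.147 in DMSO and 0.144, 0.0744 and 0.260 with palbociclib, from a mean of 77.3 reads, and the groups overlapped (edgeR adjusted p = 0.996).

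GAS5 exons are short and separated by introns, most of which hold snoRNAs. None of its 54 tested events was called by edgeR, and 12 had an unadjusted p under 0.05, as 8.53% of all events tested did. Many of the GAS5 events share exons and reads. The lowest adjusted p was 0.0694, for an event with an FDR of 0.00291 in the authors' deposited table. It set the exon at chr1:173864675-173864704, with levels of 0.0423, 0.0794 and 0.147 in DMSO and 0.0360, 0.0370 and 0.0323 with palbociclib, against a neighbouring exon. The tested event with the most reads, a mean of 6564, set the exon at chr1:173865857-173865894 against a longer stretch at chr1:173864257-173865282. The level of the first was 0.570, 0.586 and 0.568 in DMSO and 0.613, 0.618 and 0.601 with palbociclib (edgeR adjusted p = 0.121). As a skipped exon, the same exon at chr1:173864675-173864704 had the largest difference of the tested events, with levels of 0.657, 0.606 and 0.897 in DMSO and 0.518, 0.344 and 0.642 with palbociclib, from a mean of 27.2 reads, with overlapping groups.

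**Figure D5:**
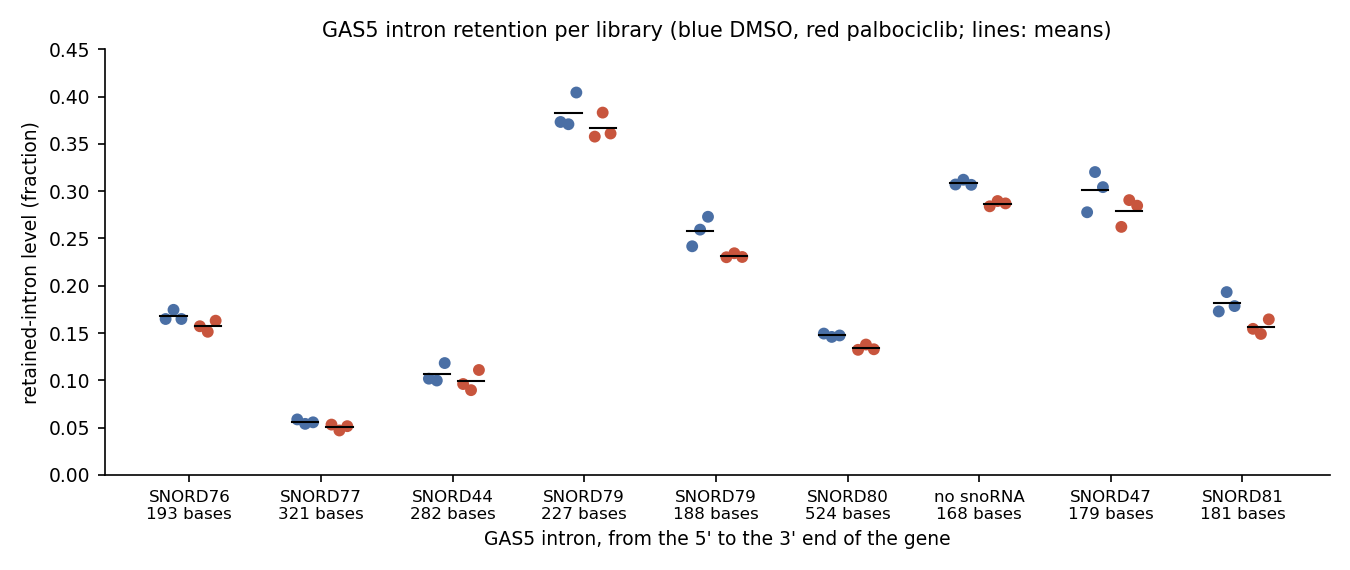
Retained-intron level (vertical axis, fraction from 0 to 1, shown to 0.45) of the 9 GAS5 intron events tested, in each of 3 DMSO (blue) and 3 palbociclib (red) libraries, with group means as lines. Labels give the intron length and the RefSeq snoRNA inside, which 1 of them lacks, and the intron of SNORD79 appears with 2 ends. The palbociclib mean is lower in all 9, and none passed the test.

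Retention of GAS5 introns was lower on average with palbociclib in all 9 intron events tested, by 0.0055 to 0.026, and none passed the test. The intron of SNORD79 appears more than once among them, with different ends. Over all 4565 retained introns tested, 50.1% had a lower mean with palbociclib. The groups were apart in 6 of the 9, as they were in the lower direction in 7.56% of all retained introns tested, but neighbouring introns are read from the same transcripts. The intron of SNORD81 (chr1:173864076-173864256) had levels of 0.173, 0.193 and 0.178 in DMSO and 0.154, 0.149 and 0.164 with palbociclib (edgeR adjusted p = 0.364). The intron of SNORD80 (chr1:173864705-173865228) had 0.149, 0.146 and 0.147 against 0.132, 0.138 and 0.133 (edgeR adjusted p = 0.596). The intron of SNORD77 (chr1:173866207-173866527) had the lowest levels, at 0.0587, 0.0540 and 0.0556 against 0.0532, 0.0470 and 0.0515. Whether the intron reads come from GAS5 RNA or from snoRNA precursors was not tested.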

How the data were processed

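The 4 lncRNAs and the gene lists were chosen with earlier results of these data known. Per the submitters' processing notes, RNA reads were handled with fastp 0.23.2, Salmon 1.10.2, STAR 2.7.10b and DESeq2 1.44.0 on GRCh38, and ATAC reads with Bowtie2 2.5.4-6, MACS3 3.0.3-0 and featureCounts. The FPKM values are as deposited by the authors, 1 column per library, with no read depth. The authors' deposited DESeq2 table gives a mean normalized count, which is a signal, log2 fold changes, a Wald statistic, which is a score, and p-values. The splicing tables hold inclusion and skipping reads, inclusion levels, a difference score and p-values deposited by the authors. ATAC counts were deposited by the authors as reads per peak in 1 peak set, made with featureCounts per the file headers.

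In R 4.3.3, log2(FPKM + 1) was tested with limma 3.58.1, and peaks and events with edgeR 4.0.16, with Benjamini-Hochberg adjustment over all features. DESeq2 1.42.0 was an alternative. The peak filter removed 0 peaks. The fits were checked on simulated data. A symbol with several rows, such as MATR3, was read from its most abundant row. Besides the 4 lncRNAs, the text names every neighbour tested, up to 3 genes each way per list that passed with groups apart, 3 most alike genes, the nearest, strongest and called peaks, and the deepest, largest and called events. Of the genes these rules name, 3 are not reported here, though the list counts include all genes of a list. A further 7 list genes (SFPQ, NONO, PSPC1, HNRNPK, SMARCA4, EWSR1, SON), with ESR1 and FOXA1, were named after their values were seen, for their roles. Promoter sequences came from RefSeq, which held entries for 2 of the 4 genes in the table used here. Replicate numbers were not used to pair the libraries in the main fits.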

Additional observations from a re-analysis of the deposited data

How the results depend on the processing

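Under the alternatives run on the RNA levels (pseudocount, no filter, quantile normalization, median centring, a replicate block and leaving out each library), DSCAM-AS1, NEAT1 and GAS5 kept their direction and their call. MALAT1 gave 0.20 under quantile normalization and 0.286 to 0.48 on leaving out 1 library. Median centring moved the median log2 change of all genes from 0.00 to 0.10, and raised the changes of the 4 lncRNAs to between 0.50 and 0.92. The split of calls over all genes, 3312 higher and 3628 lower, became 5468 and 2465 under median centring and 4588 and 2856 under quantile normalization. Both settings called 11 snoRNA host genes higher, and median centring called 1 luminal regulator or partner lower.

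Leaving out 1 library gave 3 to 5 nuclear speckle genes higher, 4 to 6 other lncRNAs higher, 1 to 4 window peaks higher and 0 to 3 events called. The count of events was 0 with DESeq2, 0 with no filter on the minor form and 2 with the replicate block. The summed MALAT1 window gave 0.075 with windows of 20 kb. The cause was not tested.

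The main fits did not pair libraries by replicate number. After group means were subtracted, the correlation of same-numbered libraries was 0.106, -0.005 and 0.088 in RNA and 0.006, 0.042 and -0.028 in ATAC. Between unlike numbers it ran from -0.139 to 0.051 in RNA and from -0.07 to 0.061 in ATAC. The same-numbered RNA libraries of replicates 1 and 3 thus lay above every unlike pair, though all correlations were low. With the replicate block the changes of DSCAM-AS1, MALAT1, NEAT1 and GAS5 were 0.83, 0.40, 0.64 and 0.43, 3 window peaks were higher and 3 lower, and list counts moved by at most 1.

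Some small values changed sign, all of them far from the threshold. The peak on the DSCAM-AS1 start gave 0.007 with library totals, 0.029 with the smoothed offset, and between -0.061 and 0.033 on leaving out 1 library. The ENEMAL peak gave 0.003 with library totals and 0.027 with the smoothed offset. The GAS5 window peak lay between -0.131 and 0.02 on leaving out 1 library. The log2 odds of the NEAT1 exon pair gave -0.16 with the replicate block and -0.568 to 0.54 on leaving out 1 library. Those of the longer DSCAM-AS1 exon lay between -0.056 and 0.063. The MALAT1 exon that was called and the NEAT1 exon pair rest on a mean of 168 and 77.3 reads per library.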

Other observations

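The shorter DSCAM-AS1 exon is a value to look at again, because its 2 events differ. In the event with few reads, palbociclib replicates 2 and 3 had 66 and 61 reads of its included form, palbociclib replicate 1 had 1 and DMSO had 0, 3 and 0, and the reads that skip it numbered 19, 7 and 9 with palbociclib and 3, 5 and 4 in DMSO. In the deeper event the included form had 69, 78 and 92 reads with palbociclib and 35, 63 and 35 in DMSO, with no such split. The split therefore belongs to 1 definition of the event and was not seen in the other, and what goes with it was not tested.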
